A study of Mus musculus with 4 samples.

Results

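The chromatin loops of wild-type mouse uterus 1 h after progesterone were compared with those of 2 libraries of uteri that had received vehicle, replicates 2 and 3, here V2 and V3. The 1301 loops listed after progesterone and in neither vehicle list (called progesterone-only) were taken from 11752 progesterone loops. The 1052 loops listed in both vehicle libraries and not after progesterone (called vehicle-only, in the coordinates of V2) were taken from 8851 loops of both vehicle lists. A loop counted as found in another list when a loop there overlapped both of its anchors after 25 kb had been added to each side. The series holds 59353 listed loops in 4 libraries. The progesterone-only count would be 3804 without V2 and 1587 without V3. The vehicle-only count would be 1557 without V2 and 6008 without V3. Leaving out V2 or V3 can only add progesterone-only loops, and leaving out V3 can only add vehicle-only loops.

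The uteri came from C57BL/6J females over 10 weeks old that were ovariectomised and rested for 10 to 14 days. Vehicle was 100 ul of saline injected into the abdominal cavity (V2 and V3), and progesterone was 1 mg in 100 ul of sesame oil injected under the skin (replicate 2). Carrier and route thus changed with the hormone, and the 3 cannot be told apart. The remaining library, of an estrogen receptor alpha knockout uterus (Ex3aERKO, replicate 1, saline), served as one more vehicle-injected library. Whole uterus was used, so stroma, muscle and epithelium were mixed. The labels do not say whether a library held 1 animal or a pool. With 1 progesterone library no test between the conditions was possible.

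Progesterone acts through the progesterone receptor, a ligand-activated transcription factor that binds the same palindromic DNA element as the glucocorticoid receptor. In the uterus it holds estrogen-driven epithelial growth in check and readies the stroma for implantation, in part through Indian hedgehog from the epithelium and Hand2 and Bmp2 in the stroma. Chromatin loops bring distant DNA segments together; many are anchored by the protein CTCF and formed by the cohesin ring, and others join promoters with enhancers.

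The sequences below are those at anchors to which the results return. The promoters run from 250 bases before to 50 bases after a start site (RefSeq, GRCm38.p6). Sgk1 is shown because it was the only gene of the lists used here whose promoter at a progesterone-only anchor held the receptor palindrome. Rhobtb3, Rfesd and Arsk are shown because 3 vehicle-only loops joined them in a triangle. Capitals mark matches to the single receptor site AGAACA, the receptor palindrome GNACANNNTGTNC and the CTCF core AGGNGGC, each searched on both strands; the first 2 can overlap.
Sgk1 promoter, chr10:21993640-21993939 (+ strand): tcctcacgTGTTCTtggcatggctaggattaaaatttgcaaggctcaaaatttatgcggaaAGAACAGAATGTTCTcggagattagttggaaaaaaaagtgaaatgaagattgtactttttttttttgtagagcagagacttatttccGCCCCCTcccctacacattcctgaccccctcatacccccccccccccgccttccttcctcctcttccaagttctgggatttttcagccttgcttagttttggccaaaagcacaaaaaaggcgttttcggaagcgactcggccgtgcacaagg
Rhobtb3 promoter, chr13:75943775-75944074 (- strand): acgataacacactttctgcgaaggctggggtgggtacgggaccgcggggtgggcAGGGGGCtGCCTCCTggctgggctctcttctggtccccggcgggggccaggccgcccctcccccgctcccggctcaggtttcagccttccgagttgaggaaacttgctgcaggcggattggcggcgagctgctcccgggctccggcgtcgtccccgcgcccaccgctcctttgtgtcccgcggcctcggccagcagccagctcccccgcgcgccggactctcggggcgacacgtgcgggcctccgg
Rfesd promoter, chr13:76018513-76018812 (- strand): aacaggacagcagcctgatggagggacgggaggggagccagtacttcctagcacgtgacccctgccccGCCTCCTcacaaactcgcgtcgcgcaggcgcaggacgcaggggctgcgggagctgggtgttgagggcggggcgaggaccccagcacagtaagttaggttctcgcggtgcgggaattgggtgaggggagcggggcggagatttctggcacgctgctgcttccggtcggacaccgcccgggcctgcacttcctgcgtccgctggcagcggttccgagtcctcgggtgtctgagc
Arsk promoter, chr13:76098611-76098910 (- strand): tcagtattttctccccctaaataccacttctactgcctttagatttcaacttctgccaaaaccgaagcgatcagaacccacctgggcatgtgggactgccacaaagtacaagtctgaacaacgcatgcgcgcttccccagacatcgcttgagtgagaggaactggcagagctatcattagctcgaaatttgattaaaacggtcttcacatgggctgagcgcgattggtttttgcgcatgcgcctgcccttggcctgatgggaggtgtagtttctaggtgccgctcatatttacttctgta
Of these 4 promoters, Sgk1 held the palindrome, 3 matches to AGAACA and 1 CTCF core. Rhobtb3 and Rfesd held only CTCF cores, and Arsk held no match to these motifs. The following mature microRNAs (RefSeq, GRCm38.p6) are shown because progesterone-only loops lay at their hairpins. Capitals mark the seed, bases 2 to 8.
miR-195a-5p: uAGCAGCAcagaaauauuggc
miR-497a-5p: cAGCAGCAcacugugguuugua
miR-193b-3p: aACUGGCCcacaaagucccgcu
miR-484: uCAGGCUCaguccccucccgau
The first 2 share the seed AGCAGCA and lie side by side in the genome, while the last 2 have different seeds and were joined by a progesterone-only loop.

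Loop numbers differed widely between libraries. There were 16387 loops in V2, 9385 in V3, 11752 after progesterone and 21829 in the knockout. Positions alone were used, so depth and loop strength are unknown, and a loop that was not listed was not shown to be absent. By gene start or end, 8 of 8 stroma markers and 5 of 7 smooth muscle markers lay at loop anchors of the 3 wild-type lists. So did 1 of 7 epithelium, 2 of 5 endothelium and 0 of 5 immune markers, and 3 of 18 hepatocyte and 7 of 20 neuronal genes. Over all protein-coding genes it was 9420 of 21627 (43.6%). Loop lists do not measure expression, so the labelled tissue could not be checked this way, and fewer cells of a type cannot be told apart from fewer loops per cell.

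Each wild-type library was set in turn against the other 2. Of the progesterone loops, 11.1% (exact 95% interval 10.5 to 11.7) were in neither vehicle list. By the same count 30.2% (29.5 to 31.0) of the V2 loops and 6.37% (5.89 to 6.89) of the V3 loops were in neither of the other lists. In the other direction, the progesterone list lacked 11.9% (11.2 to 12.6) of the loops in both vehicle lists. V2 lacked 253 of 7828 loops of the other 2 lists (3.23%), and V3 lacked 2580 of 10379 (24.9%). Progesterone therefore lay between the vehicle replicates in both measures. The intervals cover counting error only, and neighbouring loops are not independent. This order held with 0, 10 or 50 kb added, with 5 kb anchors alone and after neighbouring loops were merged. With 10 kb or 25 kb anchors alone, the progesterone list had the lowest shares of the 3 in both measures (44.9% and 40.4% with 10 kb anchors, 48.3% and 47.8% with 25 kb anchors).

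**Figure D1:**
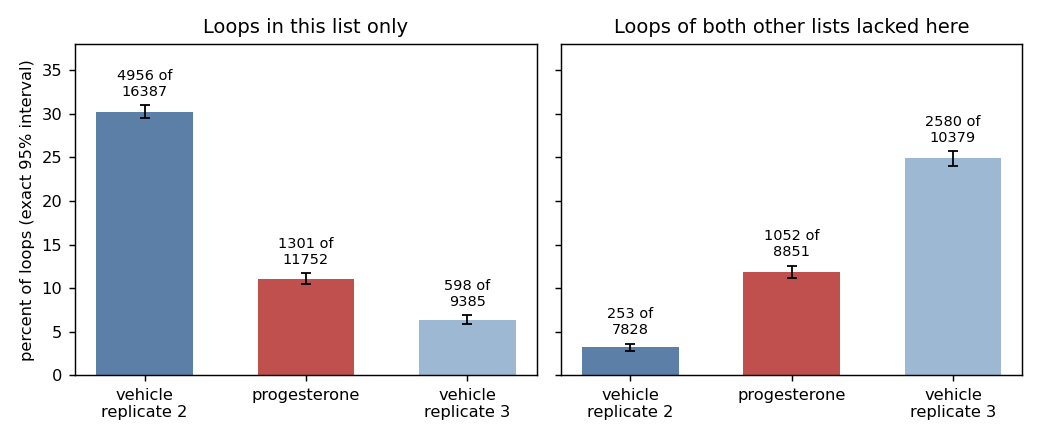
Percent of loops listed in 1 wild-type library alone (left) and percent of loops shared by the other 2 libraries that it lacked (right), with exact 95% binomial intervals that cover counting error only. The progesterone library (11.1% and 11.9%) lies between V2 (30.2% and 3.23%) and V3 (6.37% and 24.9%) on both sides.

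Pair by pair the picture was the same. Of the progesterone loops 13.5% were not in V2 and 32.4% were not in V3. Of the V2 loops 46.0% were not in V3, and 36.7% were not in the progesterone list. Of the V3 loops 9.07% were not in V2, and 16.6% were not in the progesterone list. The progesterone list held more of the V2 loops than V3 did and fewer of the V3 loops than V2 did.

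Most progesterone-only loops used anchor positions that vehicle loops used too. Both anchors of 814 of the 1301 (62.6%) lay within 25 kb of an anchor of some vehicle loop, 412 had 1 such anchor, and 75 (5.76%) had none. Among the vehicle-only loops, 558 of 1052 (53.0%) had both anchors at progesterone anchors and 76 (7.22%) had neither. The corresponding shares with both anchors were 49.6% for loops of V2 alone and 64.4% for loops of V3 alone. The progesterone-only share thus lay between those of the loops of V2 alone and of V3 alone. Vehicle-only loops were looked up in the progesterone list alone, and loops of 1 list in both other lists. These references differ in their number of loops, which was not adjusted for.

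The boundary of the classes was not sharp. The larger of the 2 anchor gaps to the nearest loop of the other condition had a median of 90 kb in both classes. It was under 50 kb for 294 progesterone-only loops (22.6%) and for 221 vehicle-only loops (21.0%). Progesterone-only loops were set against both vehicle lists, and vehicle-only loops against the progesterone list alone. Just inside the limit, 93 progesterone loops lay 25 to 30 kb from a vehicle loop; just outside, 102 lay 20 to 25 kb away and counted as shared. For loops of both vehicle lists the counts were 76 and 182. Distances from single loops to loops of the other condition, given below, are also the larger of the 2 anchor gaps. The other anchor can thus lie nearer or be shared.

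The knockout list held more of the vehicle-only than of the progesterone-only loops. It contained 832 of the 1052 vehicle-only loops (79.1%, 76.5 to 81.5) and 631 of the 1301 progesterone-only loops (48.5%, 45.8 to 51.3). Loops of V2 alone were in it at 57.2% and loops of V3 alone at 48.0%, so the interval of the progesterone-only value included that of V3 alone. The vehicle-only loops had to be in 2 lists, which the rule itself fixes. The loops that V3 lacked while 2 other lists held them were in the knockout list at 80.9%, and those that V2 lacked at 70.4% (64.3 to 75.9). Of 8360 loops in all 3 vehicle-injected lists, the progesterone list lacked 832 (9.95%). V2 lacked 178 of 7514 loops found in the other 3 lists (2.37%), and V3 lacked 2088 of 9616 (21.7%). The 670 progesterone loops in no other list made up 5.7% of that list, against 12.9% for V2 and 3.31% for V3.

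Progesterone-only loops were longer at the upper end and coarser than vehicle-only loops. Their median length was 200 kb (quartiles 80 and 500 kb), and that of the vehicle-only loops was 190 kb (85 and 375 kb). Loops of V2 alone had a median of 170 kb and those of V3 alone 225 kb, so the progesterone value fell within the vehicle baseline. Lengths over 2 Mb were found for 37 progesterone-only loops (2.84%) and 5 vehicle-only loops (0.475%). Loops of 1 vehicle library alone were over 2 Mb in 1.76% (V2) and 2.34% (V3). Anchors of 25 kb, the coarsest size in the lists, made up 37.4% of progesterone-only loops, 19.0% of vehicle-only loops, 23.1% of the loops of V2 alone and 47.2% of those of V3 alone. The vehicle-only class thus held smaller shares of coarse and very long loops than the 3 classes of 1 list. Loops that V2 lacked (in the coordinates of V3) and loops that V3 lacked also had to be in 2 lists. Anchors of 25 kb made up 53.0% of the loops that V2 lacked and 16.8% of those that V3 lacked. Lengths over 2 Mb were found for 1.58% (4 loops) and 1.82% (47 loops) of them, both above the vehicle-only share.

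The share of loops in 1 list alone grew with anchor size in every library. After progesterone it was 5.53% for 5 kb anchors, 13.2% for 10 kb and 22.1% for 25 kb. In V2 it was 20.7%, 39.6% and 52.7%, and in V3 it was 2.3%, 6.92% and 12.9%. By length, the progesterone share was 13.5% up to 60 kb, 9.15% from 100 to 200 kb, 9.11% from 200 to 500 kb, its lowest, and 28.0% over 2 Mb, its highest. V2 and V3 had their highest shares over 2 Mb (47.3% and 20.6%) and their lowest from 100 to 200 kb (25.3% and 4.56%).

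**Figure D2:**
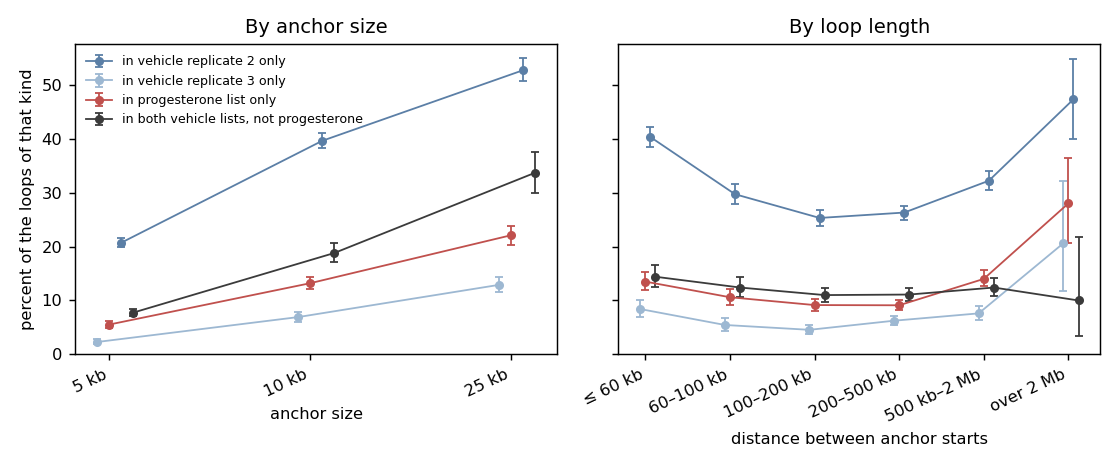
Percent of loops listed in 1 library alone, or in V2 and V3 but not after progesterone, by anchor size (left) and by distance between anchor starts (right); bars are exact 95% binomial intervals for counting error. The progesterone curve runs between those of the vehicle libraries, from 5.53% at 5 kb anchors to 22.1% at 25 kb anchors, and all 3 single-library curves rise above 2 Mb.

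The progesterone-only share was highest on the X chromosome, with 43 of 255 loops (16.9%, 12.5 to 22.0), and on chromosome 13, with 81 of 574 (14.1%). It was lowest on chromosome 11 (62 of 752, 8.24%). The median over 20 chromosomes was 11.25%. The X chromosome also ranked 2nd of 20 for loops of V3 alone and 5th for those of V2 alone. Chromosome 13 ranked 2nd for loops of V2 alone, 16th for those of V3 alone and 5th for vehicle-only loops. The vehicle-only share was highest on chromosome 17, with 55 of 346 loops (15.9%). The interval of the X chromosome did not include the value over all chromosomes, but it was the highest of 20 and was not tested.

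Protein-coding genes were placed at a loop when their start or end lay inside an anchor. Of 9420 genes at any anchor of the 3 wild-type lists, 1152 (12.2%) lay at progesterone-only loops and 814 (8.64%) at vehicle-only loops, with 74 at both. For comparison, 3823 genes lay at loops of V2 alone and 625 at loops of V3 alone. Of the 1152 genes, 401 had no loop in either vehicle list, and 134 of those had none in the knockout list. Of the 814, 387 had no progesterone loop, and 307 of those had a knockout loop. When any overlap of gene and anchor counted (the gene was touched), 1607 of 11097 genes (14.5%) were touched by progesterone-only loops and 1290 (11.6%) by vehicle-only loops. These percentages are the backgrounds for the gene lists below. They were not adjusted for loops per gene, whose median over touched genes was 1 in each wild-type library. The counts for loops of V2 alone or V3 alone given with the lists are a baseline for progesterone-only loops. List genes at loops that V2 or V3 lacked, the like baseline for vehicle-only loops, were not counted. Gene lists were read by the touched count, which takes in loops that begin within long genes, and genes named from it were chosen after their values were seen.

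Fast targets of glucocorticoids and progestins included 3 genes with a progesterone-only loop inside the gene. Of the 22 touched genes of this list, 6 (27.3%) were touched by progesterone-only loops (Cited2, Fkbp5, Pik3r1, Rgs2, Sgk1 and Zbtb16) and 4 (18.2%) by vehicle-only loops (Cited2, Klf9, Pik3r1 and Sesn1). Loops of V2 alone touched 12 of them and loops of V3 alone 1. Over all touched genes those libraries' own loops touched 45.7% and 7.94%. By gene start or end alone the counts were 3 of 20 and 1 of 20 (15.0% and 5.0%), beside backgrounds of 12.2% and 8.64%.

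Fkbp5 encodes a co-chaperone that binds steroid receptors, and its human counterpart is known for receptor binding sites within its introns. The gene (chr17:28398753-28486149, minus strand) was touched by 1 loop in V2, 1 in V3, 2 after progesterone and 3 in the knockout. A loop of 110 to 120 kb from near the gene's 3′ end to beyond its start was in all 4 lists. The second progesterone loop joined chr17:28400001-28410000 and chr17:28450001-28460000, 50 kb apart and both within the gene. The nearest vehicle loop lay 60 kb away at its farther anchor. The knockout list held a matching loop of 40 kb, so among vehicle-injected libraries it was listed in 1 of 3.

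Zbtb16 encodes the zinc finger protein PLZF, a repressor induced by progestins in endometrial stroma. It was touched by 1 loop in V2, 2 in V3, 4 after progesterone and 7 in the knockout. The progesterone-only loop joined 2 points 50 kb apart within the gene, chr9:48735001-48740000 and chr9:48785001-48790000. Its first anchor was also that of a 100 kb loop in both vehicle lists. It lay 45 kb from the nearest vehicle loop and would have counted as shared with 50 kb added; the knockout list held it too.

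Sgk1 encodes the serum and glucocorticoid regulated kinase, which controls sodium transport and cell survival. It was touched by 4 loops in V2, 3 in V3, 4 after progesterone and 4 in the knockout. Loops of 530, 390 to 395 and 200 kb that reached upstream from the same region at the gene's 3′ part were in all 4 lists. The progesterone-only loop was shorter, 70 kb, from chr10:21920001-21930000 inside the long form of the gene to chr10:21990001-22000000. The second anchor holds 3 annotated promoters of Sgk1, among them the one printed above with the palindrome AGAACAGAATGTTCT. The larger anchor gap to the nearest vehicle loop was 120 kb, although vehicle loops shared the second anchor. The knockout list held the progesterone-only loop.

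The other fast targets had wider loops. Rgs2, an inhibitor of G protein signals, was touched by 2, 2, 4 and 2 loops in V2, V3, progesterone and knockout; its progesterone-only loop of 175 kb reached the neighbouring gene Rgs13. Cited2, a coregulator that binds CBP and p300, had 10, 2, 7 and 10 loops and took 2 progesterone-only loops of 850 and 625 kb and 1 vehicle-only loop of 210 kb. Klf9, a partner of the progesterone receptor, had 3, 2, 2 and 2 loops and a 140 kb vehicle-only loop that lay 45 kb from the nearest progesterone loop. The direction was thus mixed within the list.

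**Figure D3:**
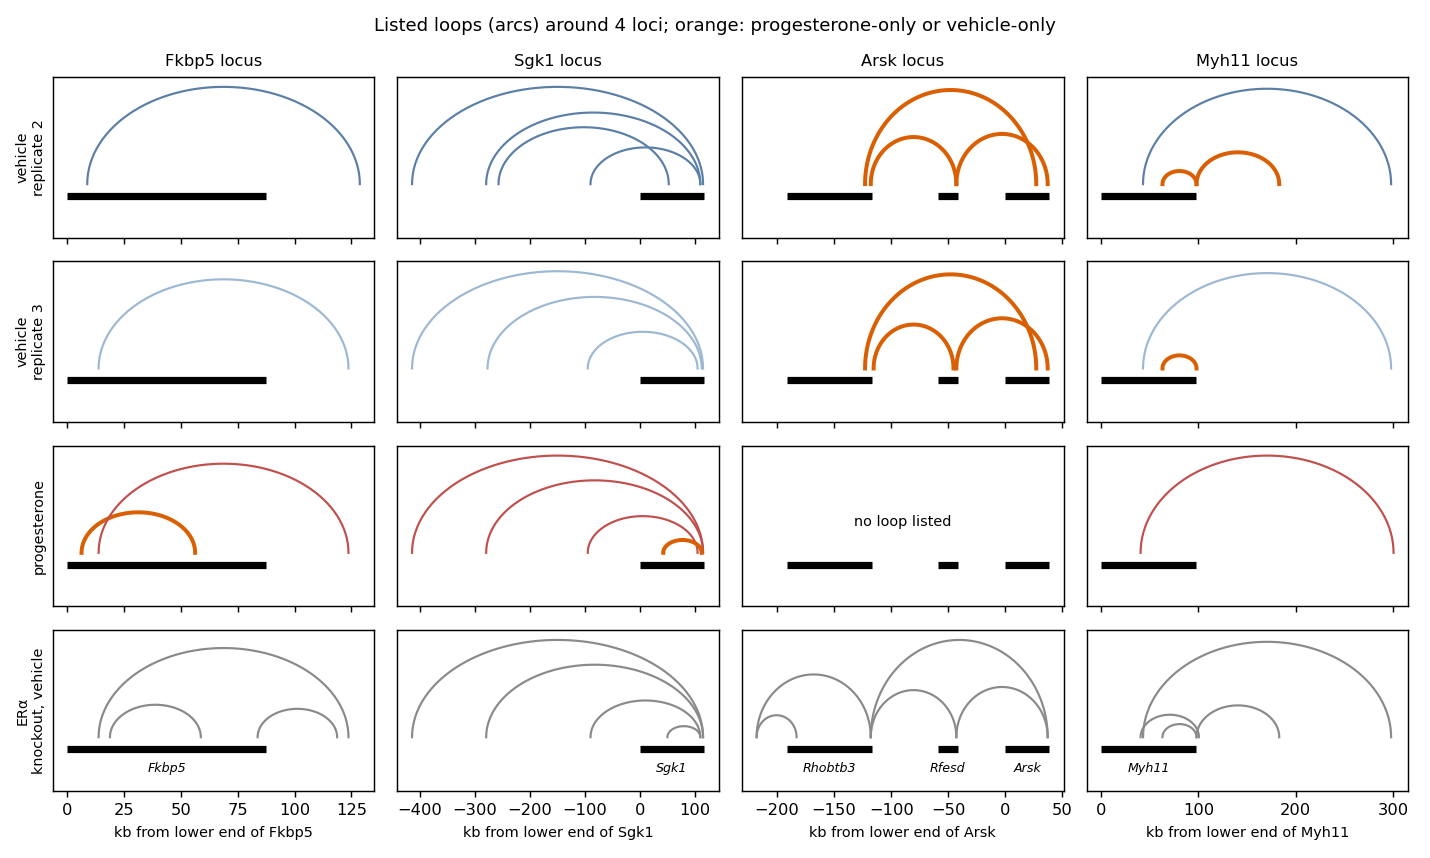
Listed loops with an anchor in Fkbp5, Sgk1 or Myh11, and loops within the Rhobtb3 to Arsk interval, in 4 libraries; x axes give kb from the lower-coordinate end of the named gene, black bars are genes, arc height is scaled to loop length, and orange arcs are progesterone-only or vehicle-only loops. The 50 kb loop within Fkbp5 and the 70 kb loop within Sgk1 stand in the progesterone rows, with matching loops of 40 and 60 kb in the knockout rows and none in the vehicle rows, and the progesterone row of Arsk is empty; the 60 kb loop of V3 that matched the 85 kb loop of Myh11 starts outside the gene and is not drawn.

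Steroid receptors and their coregulators were the list with the largest share at progesterone-only loops among lists of 20 or more touched genes, 8 of 22 (36.4%, background 14.5%). Vehicle-only loops touched 4 of 22 (18.2%, background 11.6%). Loops of V2 alone touched 13 of the 22 and those of V3 alone 2. By gene start or end the progesterone-only count was 4 of 20 (20%) and the vehicle-only count 1 of 20 (5.0%). Gene length and loops per gene, which bear on how often a gene is touched, were not adjusted for.

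Pgr encodes the progesterone receptor itself. Its gene body (chr9:8898900-8968611, plus strand) was touched by 5 loops in V2, 5 in V3, 5 after progesterone and 4 in the knockout, so each wild-type library listed the same number, but not the same loops. By gene start or end alone the counts were 0, 1, 3 and 0, with several anchors at the promoter beginning just past the start of the gene. After progesterone a 725 kb loop joined chr9:8225001-8250000 to chr9:8950001-8975000 at the 3′ end, and no other library listed it. The larger anchor gap to the nearest vehicle loop was 270 kb, although loops of 260 kb in V2 and V3 shared its anchor at the 3′ end. A loop from the promoter region at chr9:8900001-8905000 was 70 kb long in V2, where it ended just past the gene, and 50 kb in V3, where it ended within it. The knockout list held it, and the progesterone list did not. Upstream loops of 200 kb to the promoter and of 260 to 265 kb to the end of the gene were in all 3 wild-type lists.

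Coactivator and corepressor genes were among those touched by progesterone-only loops. Ncoa1 (SRC-1, a coactivator) had 1, 1, 1 and 4 loops and a progesterone-only loop of 245 kb. Ncoa3 had 4, 4, 5 and 6, with a 260 kb loop only 25 kb from a vehicle loop. Ncor1, which encodes a corepressor, had 2, 1, 3 and 4 loops, with a 275 kb progesterone-only loop not in the knockout list. Foxo1, a factor of the decidual stroma, had 4, 3, 2 and 6 loops, of which 1 of 340 kb was progesterone-only. Counts after progesterone were thus at most 1 above the higher vehicle replicate in these genes.

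Other receptors went both ways. Esr1, the estrogen receptor gene that is disrupted in the knockout, had 4, 5, 4 and 9 loops, with a 200 kb progesterone-only loop in no other list. Nr3c2, the mineralocorticoid receptor, had 1, 0, 1 and 5 loops and a 350 kb progesterone-only loop. Pgrmc2, a membrane-bound progesterone binding protein, had 4, 1, 0 and 3 loops; a 130 kb loop was in both vehicle lists and the knockout list, and none was listed after progesterone. Greb1, a hormone-induced cofactor, had 5, 5, 4 and 3, and its vehicle-only loop of 250 kb lay 35 kb from a progesterone loop.

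Genes that progesterone is known to induce in the uterus had 5 of 25 touched members at progesterone-only loops (20%) and 3 of 25 at vehicle-only loops (12.0%). The backgrounds were 14.5% and 11.6%. Loops of V2 alone touched 11 of them and loops of V3 alone 0.

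Ihh, the epithelial hedgehog ligand that progesterone induces, had 2 loops in V2, 2 in V3, 0 after progesterone and 1 in the knockout when its own position was looked up. Both V2 loops were nevertheless found after progesterone with anchors 15 kb and 10 kb farther along, of 50 and 290 kb, so neither was vehicle-only. The progesterone anchors lay beside the gene and not on it.

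Hand2, a stromal transcription factor that restrains epithelial growth, had 2 loops in V2, 0 in V3, 1 after progesterone and 3 in the knockout. Its progesterone loop was progesterone-only and 1025 kb long, and its other anchor lay at Hpgd, which encodes the prostaglandin-degrading enzyme 15-hydroxyprostaglandin dehydrogenase. The larger anchor gap to the nearest vehicle loop was 330 kb, although loops of V2 shared the anchor at Hand2. The knockout list held the progesterone-only loop. The 2 V2 loops of 690 and 640 kb matched progesterone loops whose anchors lay beside the gene. The 690 kb loop was matched in V3 too, again by a loop with its anchor beside the gene.

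Bmp2, a ligand needed for decidualisation, had 4, 1, 2 and 5 loops. Its vehicle-only loop was 575 kb long and lay 100 kb from the nearest progesterone loop. Nr2f2 (COUP-TFII, a stromal factor downstream of hedgehog) had 12, 5, 5 and 14 loops and a progesterone-only loop of 1225 kb. Prlr, the prolactin receptor, had 2, 0, 3 and 3 loops. The larger anchor gap from its 90 kb progesterone-only loop to the nearest vehicle loop was 390 kb. Cdkn1c, the cell cycle inhibitor p57, had 0, 0, 1 and 2; the 95 kb loop was progesterone-only and in the knockout list. Kif5c, a kinesin motor, had 10, 4, 7 and 8 with a 400 kb progesterone-only loop. On the vehicle side, Egfr had 3, 2, 3 and 3 with a 345 kb vehicle-only loop, and Ndrg2 had 3, 1, 1 and 4 with a 70 kb vehicle-only loop 30 kb from a progesterone loop.

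**Figure D4:**
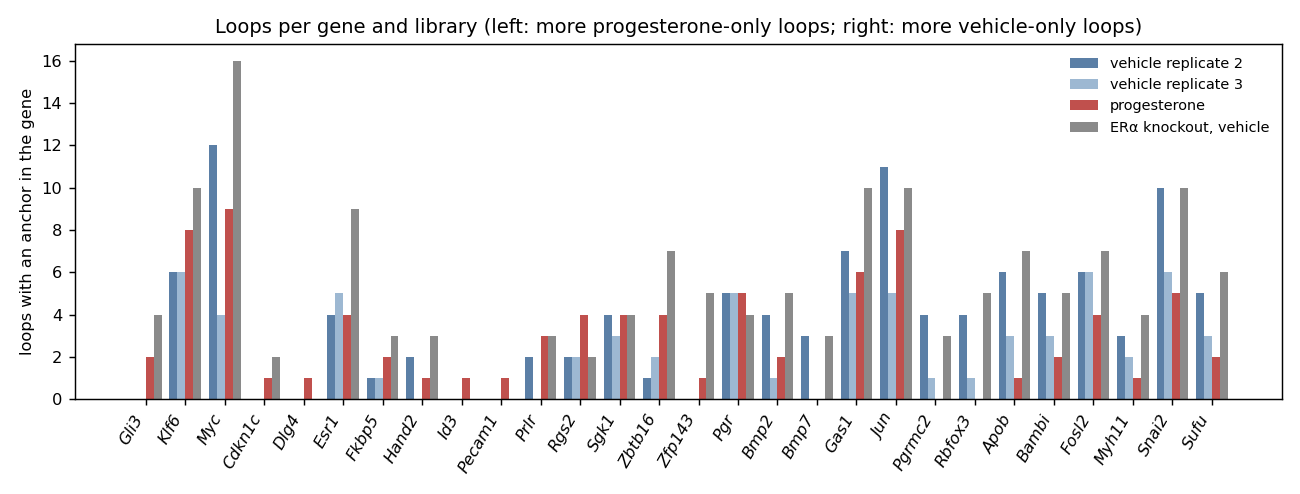
Number of loops with an anchor touching each gene in V2, V3, progesterone and the knockout, for a selection of list genes at loops of either class. Cdkn1c, Dlg4, Gli3, Id3, Pecam1 and Zfp143 have a bar after progesterone and none in V2 or V3, and Bmp7, Pgrmc2 and Rbfox3 have none after progesterone.

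In the hedgehog, Wnt and BMP lists, more genes were touched by vehicle-only than by progesterone-only loops. The counts were 3 against 1 of 12 hedgehog genes, 4 against 1 of 19 Wnt genes and 6 against 3 of 22 BMP and activin genes. The vehicle-only shares were 25%, 21.1% and 27.3%, beside 11.6% over all touched genes. As a baseline for the progesterone-only counts, 3, 12 and 12 of them were touched by loops of V2 alone and 1, 1 and 2 by loops of V3 alone. The vehicle-only counts have no such baseline here. The lists are short and no test was made. Loops per gene were not adjusted for. The list medians were 2, 3 and 3.5 in V2 and 2, 1 and 1.5 in V3. Over all touched genes the median was 1 in both.

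In the hedgehog list the vehicle-only genes were Dhh, a ligand; Gas1, a co-receptor; and Sufu, which restrains Gli factors. Sufu had 5, 3, 2 and 6 loops in the order used above, and vehicle-only loops of 110 and 105 kb that lay 45 and 50 kb from progesterone loops. Gas1 had 7, 5, 6 and 10 loops and a 75 kb vehicle-only loop. Gli3, the repressor among the Gli factors, stood opposite with 0, 0, 2 and 4 loops. Its 2 progesterone-only loops of 525 and 250 kb had larger anchor gaps of 550 kb or more to the nearest vehicle loop and were in the knockout list.

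In the BMP and activin list, Id3, a direct target of BMP signals, had 1 loop after progesterone and 0 in the other 3 libraries. That loop, 285 kb long with 5 kb anchors, joined Id3 to the splicing factor gene Srsf10. Id2 had 7, 3, 7 and 13 loops and was in both classes. Bambi, a decoy receptor, had 5, 3, 2 and 5 loops and 2 vehicle-only loops of 625 and 330 kb. Smad7, the inhibitory Smad, had 5, 2, 3 and 8 with a 185 kb vehicle-only loop, and Acvr2b, an activin receptor, had 4, 1, 1 and 1 with a 275 kb one. Bmp7 had 3, 0, 0 and 3, and its vehicle-only loop of 105 kb lay 55 kb from a progesterone loop. Among Wnt genes, Wnt5a had 12, 6, 9 and 12 loops with a 450 kb vehicle-only loop, and the co-receptor gene Lrp5 had 2, 1, 1 and 2 with a 60 kb loop within the gene that lay 25 kb from a progesterone loop.

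Early estrogen and immediate early genes showed the widest gap between the classes among lists of 20 or more genes. Vehicle-only loops touched 8 of 28 (28.6%, background 11.6%), namely Fosl2, Jun, Jund, Klf4, Klf6, Rhob, Snai2 and Vegfa. Progesterone-only loops touched 2 of 28 (7.14%, background 14.5%), Klf6 and Myc. Loops of V2 alone touched 13 and those of V3 alone 3, a baseline for the progesterone-only count and not for the vehicle-only count. By start or end the counts were 7 and 2 of 27 (25.9% and 7.41%). Touched genes of this list had a median of 2.5 loops in V2 and 1 in V3. Over all touched genes it was 1 in both, which was not adjusted for.

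Snai2, a repressor of epithelial genes, had 10, 6, 5 and 10 loops, and 2 vehicle-only loops of 190 and 550 kb that lay 25 and 35 kb from progesterone loops. Jun, an AP-1 subunit, had 11, 5, 8 and 10 loops and an 820 kb vehicle-only loop that lay 40 kb from one. Jund had 2, 1, 1 and 2, with a 35 kb loop at 30 kb from one. Fosl2, another AP-1 subunit, had 6, 6, 4 and 7 loops and vehicle-only loops of 200 and 50 kb, at 60 and 260 kb from the nearest progesterone loop. Klf4 had 3, 2, 2 and 3 with a 690 kb vehicle-only loop at 130 kb. At Snai2, Jun and Jund no class loop was left with 50 kb added, and at Fosl2 and Klf4 the gap was wider than that.

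Klf6, a zinc finger factor of early growth responses, was the list gene with most progesterone-only loops. It was touched by 6 loops in V2, 6 in V3, 8 after progesterone and 10 in the knockout. The progesterone-only loops were 610, 275 and 675 kb long and each had an anchor within chr13:5850001-5875000, and the last one reached Pitrm1. Their distance to a vehicle loop was 175, 110 and 50 kb. A 195 kb loop at the same gene was vehicle-only. Myc, the growth regulator, had 12, 4, 9 and 16 loops, with progesterone-only loops of 310 and 350 kb at 25 and 50 kb from vehicle loops.

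Among genes with vehicle-only loops and no progesterone loop was a triangle on chromosome 13. Rhobtb3, Rfesd, which encodes a Rieske domain protein, and Arsk, an arylsulfatase, were joined pairwise by loops of 75, 80 and 150 kb in V2. V3 listed the same 3 loops (70, 80 and 150 kb) and the knockout list held all 3. The progesterone list held no loop there, and the larger anchor gap to its nearest loop was 255 kb or more. With start or end inside an anchor, Rhobtb3 had 2, 2, 0 and 3 loops, Rfesd 2, 3, 0 and 2, and Arsk 2, 2, 0 and 3. The anchors were 5 kb for 2 of the loops and 25 kb for the longest, and every anchor holds one of the promoters printed above.

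Myh11 encodes the smooth muscle myosin heavy chain, a marker of the myometrium. By start or end it had 2 loops in V2, 1 in V3, 0 after progesterone and 3 in the knockout. Loops of 35 kb into the gene and 85 kb out of it, which shared the anchor chr16:14290001-14295000 at the gene's higher-coordinate end, were vehicle-only, at 195 and 110 kb from the nearest progesterone loop. The second was matched in V3 by a 60 kb loop that begins beside the gene. A 255 kb loop from within the gene was in all 4 lists, at 260 kb after progesterone. Of 5 smooth muscle markers touched, Myh11 was the 1 at vehicle-only loops and Smtn (4, 4, 5 and 4 loops) the 1 at progesterone-only loops. These shares were 20% each, beside 11.6% and 14.5% over all touched genes.

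The other genes named by the rule had 2 vehicle-only loops each and 0 progesterone loops by start or end. They were Atg3 (autophagy), Cachd1, Dhps (deoxyhypusine synthase), Fry, Itpr1 (the calcium channel of the endoplasmic reticulum) and Kctd11. Loops in V2 and V3 numbered 3 and 1 for Atg3, 3 and 2 for Cachd1 and 3 and 3 for Dhps. They were 2 and 1 for Fry, 2 and 1 for Itpr1 and 4 and 1 for Kctd11. By start or end, Atg3 and Fry had 0 loops in the knockout list and the rest 2 to 4. The 55 kb vehicle-only loop of Fry nevertheless had a match in the knockout list. The 2 loops of Atg3 were both matched by the same 60 kb loop in V3, and so were 2 of the loops of Itpr1 by a 110 kb loop.

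On the progesterone side the rule named 10 genes with 2 progesterone-only loops and 0 vehicle loops, several of them neighbours that shared both loops. Acap3 and Pusl1 (an Arf GTPase regulator and a pseudouridine synthase-like protein) shared loops of 60 and 50 kb. Plin3 (a lipid droplet protein) and Arrdc5 shared loops of 35 and 60 kb, the shorter one to the histone demethylase gene Kdm4b. Lnx2 and Polr1d (a subunit of RNA polymerases I and III) shared loops of 130 and 35 kb. Hspa14 had loops of 90 and 35 kb, Msl2 of 620 and 35 kb, Ppp4r3b of 40 and 75 kb and Dhx36, a helicase of quadruplex DNA and RNA, of 1225 and 1140 kb. In the knockout list Ppp4r3b had 3 loops, Msl2 2, Dhx36 0 and the other 7 genes 1 each. These loops lay 75 to 360 kb from the nearest vehicle loop except at Hspa14 (30 and 45 kb).

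Genes of architectural proteins were touched at 3 of 13 by progesterone-only loops (23.1%, background 14.5%), namely Top2b, Yy1 and Zfp143. Vehicle-only loops touched 1 of 13 (7.69%, background 11.6%), Yy1. In the baseline, 10 of the 13 were touched by loops of V2 alone and 0 by those of V3 alone, beside 45.7% and 7.94% over all touched genes. Yy1, a factor that bridges promoters and enhancers, had 3, 1, 1 and 4 loops. Its 45 kb loop to Slc25a29 and the hairpin of miR-345 was in both vehicle lists and the knockout list, while an 80 kb loop was progesterone-only; each lay 40 kb from the nearest loop of the other condition. Zfp143, which encodes a promoter-binding factor found at loop anchors, was joined to Wee1, a cell cycle kinase, by a 60 kb progesterone-only loop, with 0, 0, 1 and 5 loops in all. Of stroma markers, 2 of 8 (25%, background 14.5%) were touched by progesterone-only loops, Dcn and Lum, by 1 loop of 85 kb that they share. None was touched by vehicle-only loops (background 11.6%).

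**Figure D5:**
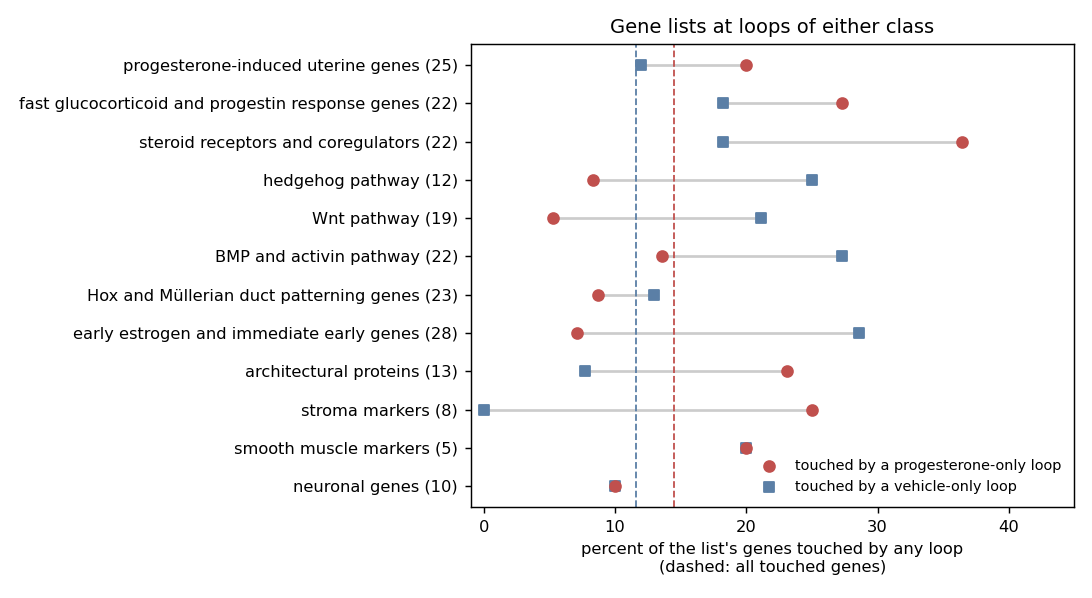
Percent of each list's touched genes (number in parentheses) that were touched by progesterone-only loops (circles) and vehicle-only loops (squares), for lists with 5 or more touched genes; dashed lines are all touched genes, 14.5% and 11.6%. Steroid receptors and coregulators lie farthest to the right for progesterone-only loops (36.4%), and early estrogen and immediate early genes for vehicle-only loops (28.6%); no test was made.

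Loops with both anchors in 1 gene made up 182 of 1301 progesterone-only loops (14.0%, 12.1 to 16.0) and 136 of 1052 vehicle-only loops (12.9%), each with a median length of 70 kb. The shares for loops of 1 vehicle library alone were 13.9% (V2) and 12.9% (V3). Loops within 1 gene, such as those in Fkbp5, Zbtb16 and Sgk1, thus had similar shares in the vehicle baseline.

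Promoters lay at both anchors of 180 progesterone-only loops (13.8%, 12.0 to 15.8) and of 97 vehicle-only loops (9.22%, 7.54 to 11.1). The share was 12.5% in loops of V2 alone and 13.7% in loops of V3 alone, against 7.41% of all progesterone loops. Among 5 kb anchors it was 15.8% and 8.15% in the classes, and 12.4% and 14.3% in loops of V2 and V3 alone. The share in each class of 1 list was thus above that of all progesterone loops and of all loops of V2 (8.07%) and V3 (6.32%). Among loops that V2 lacked it was 13.8% (9.83 to 18.7), and among those that V3 lacked 9.73% (8.61 to 10.9). Those loops had to be in 2 lists, as vehicle-only loops did.

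Receptor sites were looked for in the promoters at the anchors. The single site AGAACA was in 11.6% (9.52 to 13.8) of 883 promoters there, 9.95% (7.7 to 12.6) of 613 at vehicle-only loops, 12.1% of 7317 at any anchor of the 3 lists and 16.3% of all 21044, so the share at progesterone-only loops lay between those of vehicle-only loops and of all anchors. The palindrome GNACANNNTGTNC was in 2 of 883 (0.227%) and 3 of 613 (0.489%), against 0.355% at any anchor and 0.447% of all promoters. The 2 were Sgk1, with GAACAGAATGTTC centred 182 bases before the start site, and Galnt11, with GAACACGTTGTAC. The 3 at vehicle-only loops were 1 promoter of Allc and 2 overlapping promoters of Zfp473. The estrogen receptor palindrome GGTCANNNTGACC was in none of the promoters of either class (at most 0.417% and 0.6%) and in 0.0523% of all promoters. The CTCF core AGGNGGC was in 41.7% and 43.1% of the promoters of the classes, 41.6% at any anchor and 33.8% of all. Promoters at anchors were richer in G and C (median 61.0%) than all promoters (56.7%). The windows cover 300 bases at start sites; the rest of each anchor was not searched.

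More microRNA hairpins lay at progesterone-only than at vehicle-only loops. Of 272 hairpins at anchors of the 3 lists, 34 (12.5%) were at progesterone-only loops, close to the 12.2% of protein-coding genes. Only 9 (3.31%) were at vehicle-only loops, below the 8.64% of genes. Anchors of 25 kb made up 37.4% of progesterone-only and 19.0% of vehicle-only loops, and anchor width was not adjusted for. Hairpins at loops of V2 or V3 alone, or at loops that V2 or V3 lacked, were not counted. Many hairpins lie in clusters and share 1 loop. The hairpins of miR-195a and miR-497a, inhibitors of the cell cycle with the shared seed AGCAGCA printed above, lay at 0 loops in V2, 1 in V3, 2 after progesterone and 1 in the knockout. Their progesterone-only loop was 825 kb long with 25 kb anchors and in no other list. The hairpins of miR-193b and miR-484 were joined by a 725 kb progesterone-only loop on chromosome 16, in no other list. Mir484 had 2, 0, 4 and 7 loops, and Mir193b 1, 0, 1 and 1. On the vehicle side, miR-345 had 1, 1, 0 and 1 loops, all of them the 45 kb loop to Yy1.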

How the data were processed

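Hi-C libraries of mouse uterus were made with the Arima kit, per the labels. The authors deposited 1 loop list per library: positions in bases (chromosome, start and end of both anchors), with no other values. Juicer 1.5.6 and mm10 are named per the submitters' processing notes; the sources used here do not give the program or thresholds behind the loop calls. Contact counts were not used, so depth is unknown.

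Positions were written from 1. Loops of different lists matched when both pairs of anchors overlapped or lay less than 25 kb apart (the anchors of 1 loop were widened). Genes (21627 protein-coding), promoters and hairpins came from RefSeq tables of GRCm38.p6, the assembly behind mm10; the gene table has no strand. Of the 16 gene lists, 271 of 274 genes matched; Mig7, Cyr61 and Znf143 did not. Named genes were Pgr, Ihh, Fkbp5, Hand2 and Bmp2; in each class up to 10 genes with most class loops among genes with 0 loops in the other condition; up to 10 list genes with most class loops; and the position with most class loops sharing an anchor. Ties went by finest anchor, then symbol. Members and lists were chosen with earlier results of these data known. Other genes were named after their values were seen, and some list genes are not reported here.

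Shares carry exact (Clopper-Pearson) 95% intervals for counting error only. Matching and gene placement were tested on simulated data. Alternatives were 0, 10 and 50 kb added, anchor midpoints, single anchor sizes, merged neighbouring loops, either vehicle replicate left out and other gene rules. Python 3.11.15, numpy 2.4.6, pandas 2.3.3, scipy 1.17.1 and matplotlib 3.10.9 were used.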

Additional observations from a re-analysis of the deposited data

How the results depend on the processing

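No paired analysis was possible because only replicate number 2 occurs in both conditions. No result here has a test, so an alternative could change a value but no call. The progesterone-only count of 1301 became 3773 with 0 kb added and 639 with 5 kb anchors alone, and 1587 to 3804 with 1 vehicle replicate left out (3804 without replicate 2). The vehicle-only count of 1052 became 1790 with 0 kb added and 415, 386 and 243 with 5, 10 and 25 kb anchors alone, and 1557 to 6008 with 1 vehicle replicate left out (6008 without replicate 3). The progesterone-only count thus changed more without replicate 2, and the vehicle-only count more without replicate 3. In both cases the rule can only add loops. The other settings moved either count by less than 1.5 times.

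Genes at progesterone-only loops, 1152, became 2540 with 0 kb added and 1818 when a start or end within 10 kb of an anchor counted, and 1403 to 3041 with a vehicle replicate left out. Genes at vehicle-only loops, 814, became 1290 by gene body and 1525 within 10 kb, and 1492 to 4365 with a replicate left out. The median length of progesterone-only loops, 200 kb, became 160 kb with 0 or 10 kb added, 250 kb with 50 kb added and 95 kb with 5 kb anchors alone, and that of vehicle-only loops, 190 kb, became 130 kb with 5 kb anchors alone. Leaving out a replicate gave 180 to 200 kb and 175 to 200 kb.

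Settings for single genes were added after seeing the data. Of 43 pairs of a named gene and a class, 39 kept a class loop with 0 kb added, 41 with 10 kb, 38 with 50 kb, 40 without vehicle replicate 2 and 43 without vehicle replicate 3. Leaving out replicate 3 can only add loops to either class, so the last count was fixed in advance. In the same way, no progesterone-only loop can be lost with 0 or 10 kb added or without replicate 2. For progesterone-only loops, only the setting with 50 kb added could therefore lose a pair. Those lost with 50 kb added were Hspa14 and Wnt7b (progesterone-only) and Snai2, Jun and Jund (vehicle-only). Without replicate 2 the vehicle-only loops of Cited2, Dhh and Jund were not found.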

Other observations

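A few positions gathered several loops of a class. Of 2435 windows of 25 kb with a progesterone-only anchor, 2279 had 1 such loop and 11 had 3, the highest number. Besides the one at Klf6, they held Rdh10 (a retinol dehydrogenase) with Rpl7, Rasal2, Pxdc1, Nfia, Dnajc2 with Psmc2, and M6pr with Phc1, while 4 windows held no gene start or end. Vehicle-only anchors lay in 1971 windows, of which 4 had 3 or more loops. The highest number, 4, was on chromosome 3 (chr3:137750001-137775000), with no gene start or end inside.

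The longest progesterone-only loops spanned up to 33025 kb. On chromosome 17 a 33025 kb loop joined the zinc finger gene Zfp945 with Zfp119a and Zfp959. On the X chromosome a 32450 kb loop started at Kdm6a, and the knockout list held it. A 20050 kb loop on chromosome 5 joined Dnajc2 and Psmc2 with Bod1l. All 3 had 25 kb anchors. V2 alone held loops of up to 96420 kb, and V3 alone up to 83450 kb.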
